A study of Mus musculus with 13 samples.

Results

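Transcripts of 8 germ cell specification factors were followed in male primordial germ cells of E14.5 mouse embryos: Prdm1, Prdm14, Tfap2c, Sall4, Lin28a, Kit, Ifitm3 and Ifitm1. The set was chosen by name from a table of 35976 gene symbols, and all 8 passed the filter on low counts that left 14702 genes for testing. Primordial germ cells are the embryonic precursors of sperm and eggs. Here they were isolated by a fluorescent reporter of Oct4, a gene active in germ cells, and RNA was taken from 5000 cells per library. The libraries carried 4 genotypes of Tet1, the gene of an enzyme that oxidises 5-methylcytosine in DNA, with 3 libraries each. KO is a knockout, HxD encodes a TET1 known to lack catalytic activity, V encodes a TET1 known to stop at 5-hydroxymethylcytosine, and WT is wild type. Neither the deleted stretch of Tet1 in KO, nor the strain, nor whether a library holds 1 embryo or a pool is stated in the labels. What was asked here is whether the transcripts of the specification factors differ with the state of TET1.

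In the mouse, signals of the BMP family induce PRDM1, PRDM14 and TFAP2C in a few cells of the early embryo. PRDM1 represses the somatic programme, PRDM14 restores pluripotency genes and helps to lower DNA methylation, and TFAP2C acts downstream of PRDM1. SALL4 is a zinc finger factor of pluripotent and germ cells, and LIN28A is an RNA-binding protein that blocks the maturation of let-7 microRNAs, which would otherwise limit PRDM1. KIT is the receptor through which germ cells receive their survival and migration signal from surrounding cells. IFITM3, also called Fragilis, and IFITM1 are small interferon-inducible membrane proteins that mark germ cell precursors, and interferon acts on such genes through promoter elements built of GAAA repeats.

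TET1 oxidises methylated cytosines, most of which precede a guanine, so the CG dinucleotides around the members' start sites are described first. RefSeq promoter windows of build GRCm38.p6, each holding 250 bases before and 50 after a start, were matched for 5 of the 8 members, with Prdm14, Tfap2c and Sall4 unmatched. The Prdm1 window held 20 CG, the first of the pair of overlapping Kit windows held 20 and the Lin28a window 10, while those of Ifitm3 and Ifitm1 held 5 each. The median over 32851 windows was 7. Shown here are the 250 bases before the start of the CG-rich Prdm1, of Lin28a and of the CG-poor Ifitm pair, 5′ to 3′, with every CG in capitals.
Prdm1 promoter, chr10:44458749-44458998, minus strand: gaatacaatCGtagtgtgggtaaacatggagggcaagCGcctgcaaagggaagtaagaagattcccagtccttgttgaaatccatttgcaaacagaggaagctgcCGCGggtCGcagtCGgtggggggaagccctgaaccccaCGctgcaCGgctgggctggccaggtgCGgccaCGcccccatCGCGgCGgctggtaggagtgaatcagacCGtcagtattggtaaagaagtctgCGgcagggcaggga
Lin28a promoter, chr4:134018817-134019066, minus strand: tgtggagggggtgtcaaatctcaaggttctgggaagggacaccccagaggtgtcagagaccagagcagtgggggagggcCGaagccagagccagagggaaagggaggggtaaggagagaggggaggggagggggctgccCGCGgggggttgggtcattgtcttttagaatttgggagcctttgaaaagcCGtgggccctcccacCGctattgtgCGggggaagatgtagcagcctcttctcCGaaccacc
Ifitm3 promoter, chr7:141010745-141010994, minus strand: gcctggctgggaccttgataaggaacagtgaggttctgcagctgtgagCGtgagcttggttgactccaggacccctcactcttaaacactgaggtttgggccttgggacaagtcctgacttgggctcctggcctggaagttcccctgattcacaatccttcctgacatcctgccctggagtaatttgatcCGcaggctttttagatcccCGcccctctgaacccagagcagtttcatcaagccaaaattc
Ifitm1 promoter, chr7:140967826-140968075, plus strand: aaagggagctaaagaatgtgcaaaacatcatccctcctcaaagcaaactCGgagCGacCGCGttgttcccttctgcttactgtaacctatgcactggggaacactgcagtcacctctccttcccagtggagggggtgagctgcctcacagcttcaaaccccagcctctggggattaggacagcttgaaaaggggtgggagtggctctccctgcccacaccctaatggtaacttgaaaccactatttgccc
Both strands of each window were searched for GAAA, any 2 bases and GAAA again, a core of interferon response elements. It was found in the Ifitm3 window, in 2 matches that start 3 and 20 bases into the transcript, and in none of the other members' windows, against 3.44% of all windows. The stretch that holds the pair is shown with the matches in capitals, since the window of the neighbouring Ifitm1 has no match.
Ifitm3 start, chr7:141010714-141010743, minus strand: gGAAAAGGAAActtctgaGAAACCGAAAct
GCCNNNGGC, a motif that TFAP2 factors bind, was present in the windows of Lin28a and Kit and in 16.6% of all windows. A match is a description of the letters and not evidence of binding.

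Library totals ran from 13584484 to 29641963 counts, and the members' counts from 961 to 19082 per library, so that counting error alone was at most 3.23%. Tet1 averaged 213 ± 11.8 CPM in KO, 626 ± 101 CPM in HxD, 480 ± 133 CPM in V and 608 ± 27.0 CPM in WT (SD, n = 3 each), and fell in KO against WT (edgeR adjusted p = 1.41e-05, log2 fold change -1.51). CPM is the read count scaled to a common library size, with TMM, a method that aligns libraries on the bulk of their genes. The germ cell markers Ddx4, Dazl and Dppa3 averaged between 532 CPM (Ddx4 in KO) and 1754 CPM (Dazl in WT). The summed level of 8 male germ cell markers was 2540 to 2940 CPM in KO, 2470 to 3230 in HxD and 2900 to 3470 in V, all below the 3790 to 4120 CPM of WT, with 0 or 1 marker at 0 counts in a library. The markers did not move together. Dazl averaged 849 CPM in KO, 793 in HxD and 953 in V, against 1754 CPM in WT, and fell in KO and HxD (edgeR adjusted p = 0.00943 and 0.00935), while 3 of the 8 had a positive log2 fold change in KO, 3 in HxD and 4 in V. Of all 14702 genes 7389, 7005 and 7494 had a positive log2 fold change. Among the positive markers were Dnd1 (0.58, 0.32 and 0.39) and Pou5f1 (0.18, 0.55 and 0.71), neither called. Negative in each mutant beside Dazl were Ddx4 (-0.70, -0.55 and -0.29), Sycp3 (-1.19, -1.80 and -1.54) and Nanos2 (-3.50, -2.45 and -0.25), none called. Nanos2 had 0 counts in 1 library of each genotype. Dppa3 averaged 702 CPM in KO, 776 in HxD and 791 in V, against 760 CPM in WT (log2 fold changes -0.115, 0.03 and 0.06). Summed markers of Sertoli cells, the supporting cells of the fetal testis, ranged over 28.9 to 72.3 CPM in KO, 10.3 to 46.6 in HxD, 19.0 to 388 in V and 19.5 to 139 in WT, the highest being V 2 and WT 3. All 8 Sertoli markers had a count in V 2. Leydig cell markers (6 genes) summed to 3.67 to 35.7 CPM in KO, 0.941 to 28.8 in HxD and 3.53 to 30.5 in V, against 0.92 to 4.96 in WT, and those of interstitial cells (7 genes) to 5.42 to 28.6, 17.6 to 22.9 and 1.81 to 34.6, against 6.88 to 13.6 in WT. Between 1 and 5 genes of each of these lists were at 0 counts in a library. Endothelial markers (7 genes) summed to 203 to 289 CPM in KO, 163 to 266 in HxD and 132 to 169 in V, against 173 to 231 in WT, most of it Pecam1, which germ cells also express, while Emcn and Tie1 had 0 counts in all 12 libraries. Erythroid markers (7 genes) reached at most 13.5 CPM, in WT. The part of these marker levels in the differences of the specification factors was not tested. WT 3 had the fewest symbols with a count (11529) and V 3 the smallest total, and values without this pair are given where they bear on a result. In bulk RNA, fewer cells of a type and less RNA per cell cannot be told apart.

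The 8 members spanned a wide range of transcript levels and all were well expressed. Per kb of exon, averaged over the 12 libraries, Ifitm3 was at 223 and Ifitm1 at 190 CPM per kb. Sall4, Lin28a and Kit followed at 77.3, 73.9 and 58.9 CPM per kb, and Tfap2c, Prdm14 and Prdm1 at 32.0, 31.3 and 29.4 CPM per kb. Ranges over libraries overlapped between Ifitm3 (154 to 324) and Ifitm1 (155 to 265), among Sall4 (69.2 to 93.8), Lin28a (59.7 to 99.8) and Kit (29.4 to 86.3), and among Tfap2c (13.1 to 42.2), Prdm14 (22.4 to 40.6) and Prdm1 (21.8 to 36.6), so the order inside each of these sets was not resolved. The pair of Ifitm genes lay above every other member in every library. Exon lengths came from GENCODE M21, and with the longest transcript instead, Kit stood at 100 and Ifitm1 at 236 CPM per kb, which put Kit ahead of Sall4 and Lin28a, and Ifitm1 ahead of Ifitm3.

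**Figure D1:**
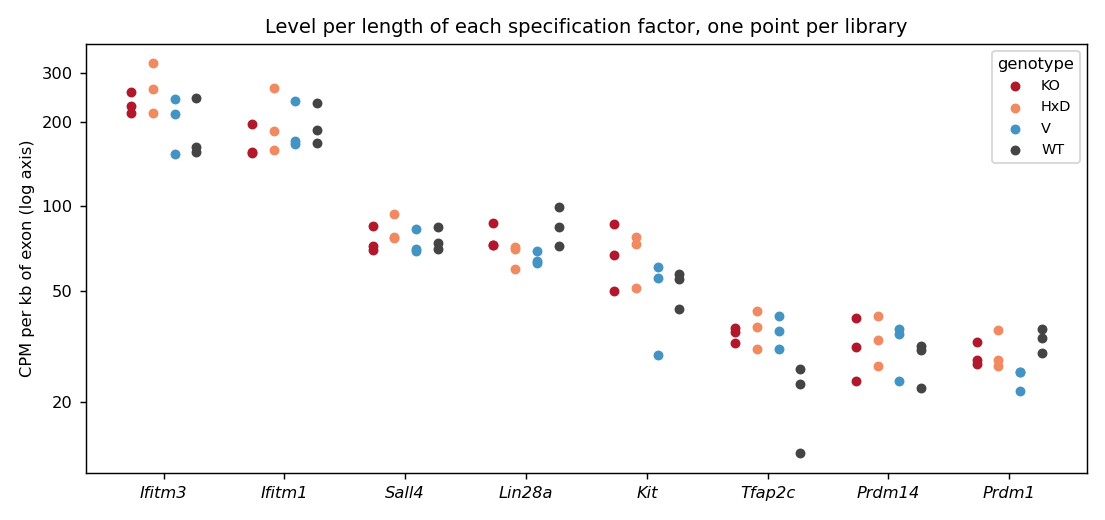
Level of each specification factor per kb of annotated exon (log axis), 1 point per library, coloured by Tet1 genotype, with genes ordered by their mean over 12 libraries. Ifitm3 and Ifitm1 lie above all others, and the WT points of Tfap2c lie below those of the 3 mutants.

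None of the 8 members passed the test between any 2 genotypes. The test was edgeR's quasi-likelihood test over all 14702 genes with Benjamini-Hochberg adjustment, and a gene was called at an adjusted p under 0.05. Of all genes it called 0.218% in KO against WT, 0.034% in HxD against WT and 0% in V against WT. At an unadjusted p under 0.05 the members past the threshold were 1 of 8 in KO, 3 of 8 in HxD and 3 of 8 in V, where 8.3%, 8.24% and 6.05% of all genes were. The members with such a p were Tfap2c in each mutant, Lin28a in HxD and V, Ifitm3 in HxD and Prdm1 in V. The median log2 fold change over the 8 members was 0.08 in KO, 0.18 in HxD and -0.04 in V, beside 0.003, -0.02 and 0.01 over all genes. KO, HxD and V were set against the same WT libraries, so the 3 comparisons are not independent of each other.

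**Figure D2:**
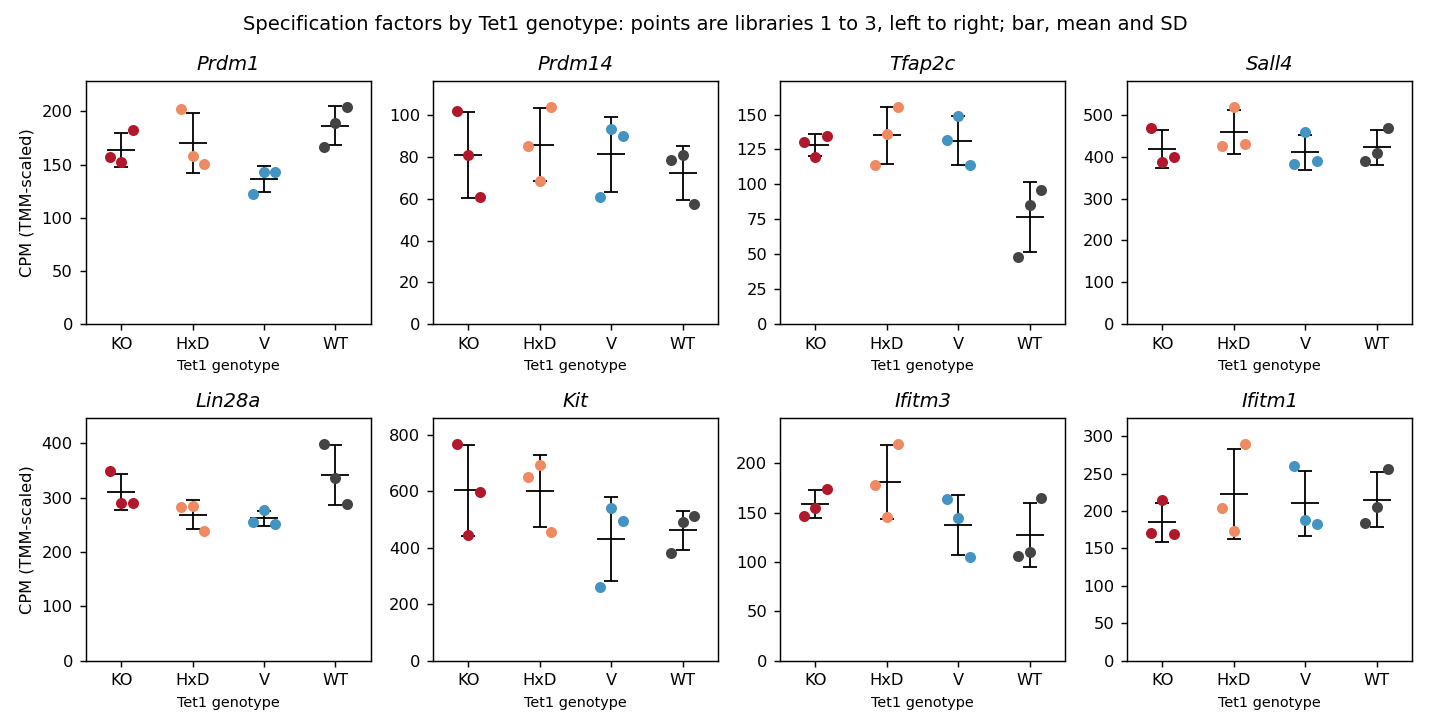
TMM-scaled CPM of the 8 specification factors in each library, by Tet1 genotype, with the mean and SD of 3 libraries as a bar. For Tfap2c the 9 mutant libraries lie at 114 to 155 CPM and the WT libraries at 48.2 to 96.3 CPM, whereas for Sall4 the genotypes share 1 range.

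Tfap2c, the factor downstream of PRDM1, was the member with the largest difference from WT. It had 130, 120 and 135 CPM in KO 1 to 3, against 48.2, 85.0 and 96.3 CPM in WT 1 to 3. It had 114, 136 and 155 CPM in the HxD libraries and 132, 149 and 114 CPM in the V libraries. Every mutant library lay above every WT library, and WT 1 was the lowest of all. The fold over WT was 1.68 in KO (log2 fold change 0.74, 95% interval 0.30 to 1.195, edgeR adjusted p = 0.212), 1.77 in HxD (0.82, 0.37 to 1.27, adjusted p = 0.256) and 1.72 in V (0.78, 0.33 to 1.23, adjusted p = 0.494). Genes whose libraries all lay above WT made up 8.13% of those tested in KO, 5.26% in HxD and 5.75% in V. Without WT replicate 1 the log2 fold changes were 0.50, 0.57 and 0.54, and without WT replicate 3 and V replicate 3 they were 0.94, 1.02 and 1.07. DESeq2 called Tfap2c in HxD (adjusted p = 0.0251), as did edgeR without the low-count filter (adjusted p = 0.0416). In HxD against WT these settings called 199 and 67 of all genes, beside 5 in the main fit. Adjusted p over the 19 alternative settings ran from 0.0576 to 0.717 in KO, 0.0251 to 0.766 in HxD and 0.0827 to 0.912 in V.

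The other DNA-binding factors differed less between genotypes. Prdm1, the repressor of somatic genes, had 122, 143 and 143 CPM in V 1 to 3, against 167, 189 and 204 CPM in WT 1 to 3. All V libraries lay below all WT libraries, as did 6.06% of genes tested. The log2 fold change was -0.46 (SE 0.18, edgeR adjusted p = 0.757). KO libraries had 157, 152 and 182 CPM of Prdm1 and HxD libraries 202, 158 and 150 CPM, both overlapping WT, with log2 fold changes of -0.19 and -0.13.

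Prdm14, which restores pluripotency genes in germ cells, was the weakest member in CPM and overlapped in all genotypes. It ranged over 60.7 to 102 CPM in KO, 68.7 to 104 in HxD, 60.8 to 93.3 in V and 57.5 to 81.2 in WT. Its log2 fold changes from WT were 0.16 in KO, 0.25 in HxD and 0.17 in V, each with an SE of 0.25. In KO and V that value changed sign under alternatives.

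Sall4 was the steadiest of the members. Its level ranged over 387 to 470 CPM in KO, 427 to 520 in HxD, 383 to 459 in V and 390 to 469 in WT. The SD of its log2 CPM over the 12 libraries was 0.14, smaller than in all but 2.3% of 9250 genes at or above a mean of 8 CPM. Sall4 lay above 97.8% of tested genes in CPM, and its SD was not compared with genes of like level. The log2 fold change from WT was -0.01 in KO (95% interval -0.33 to 0.30), 0.12 in HxD (-0.20 to 0.44) and -0.04 in V (-0.36 to 0.28). As folds over WT these intervals are 0.796 to 1.23 in KO, 0.873 to 1.35 in HxD and 0.781 to 1.21 in V. The signs in KO and V turned under alternatives.

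Lin28a, the brake on let-7 maturation, was below WT in all libraries of HxD and V, though not past the adjusted threshold. It had 282, 285 and 239 CPM in HxD 1 to 3, against 399, 337 and 289 CPM in WT 1 to 3. V libraries had 256, 277 and 252 CPM. The same separation held for 7.22% of genes tested in HxD and 6.06% in V, and the gap between HxD 2 and WT 3 was narrow. The log2 fold change was -0.35 in HxD (SE 0.16, edgeR adjusted p = 0.594) and -0.39 in V (SE 0.16, adjusted p = 0.78). KO libraries had 348, 291 and 290 CPM, within the span of WT, and a log2 fold change of -0.14. Without WT replicate 1, the highest library, the values were -0.22 in HxD, -0.26 in V and -0.02 in KO.

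Kit, the receptor for the survival signal, varied most between libraries of 1 genotype (within-genotype SD of log2 CPM 0.399, the next being Prdm14 at 0.325). It had 769, 446 and 597 CPM in KO 1 to 3, against 382, 491 and 512 CPM in WT 1 to 3. HxD libraries had 652, 694 and 456 CPM and V libraries 262, 540 and 495 CPM. Each mutant overlapped WT, with KO 1 highest and V 1 lowest. The log2 fold change from WT was 0.39 in KO and 0.38 in HxD (SE 0.21 each, edgeR adjusted p = 0.641 and 0.617) and -0.10 in V (SE 0.21, adjusted p = 1). Over all 12 libraries the SD of Kit was 0.415, second to that of Tfap2c at 0.461. KIT is also a mast cell protein, and the mast cell markers Cpa3, Cma1 and Mcpt4 had 0 counts in all 12 libraries. The list of 9 macrophage and mast cell markers, whose counts are thus all from its macrophage genes, summed to 0 to 1.81 CPM in KO, 0 to 5.35 in HxD, 5.32 to 28.5 in V and 0 to 3.29 in WT, with 7 to 9 of them at 0 counts in a KO library, 6 to 9 in HxD, 3 to 8 in V and 7 to 9 in WT.

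Neither Ifitm3 nor Ifitm1 was called in any mutant, and both overlapped WT in each. Ifitm3 had 178, 146 and 220 CPM in HxD 1 to 3, against 106, 110 and 165 CPM in WT 1 to 3. KO libraries had 147, 155 and 174 CPM and V libraries 164, 145 and 105 CPM. WT 3 was the highest of the WT libraries. The log2 fold change was 0.51 in HxD (SE 0.21, edgeR adjusted p = 0.556), 0.32 in KO and 0.11 in V. Without WT replicate 3 and V replicate 3 the value in V was 0.51 (adjusted p = 0.828). Ifitm1 ranged over 169 to 215 CPM in KO, 174 to 290 in HxD, 182 to 260 in V and 184 to 256 in WT. Its log2 fold changes from WT were -0.22 in KO, 0.05 in HxD and -0.03 in V, with an SE of 0.20 each.

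The ratio of Ifitm3 to Ifitm1 counts within a library needs no scaling between libraries. This measure was chosen after the values were seen. It was 0.859, 0.721 and 1.03 in KO 1 to 3, 0.871, 0.838 and 0.759 in HxD, and 0.629, 0.77 and 0.575 in V, against 0.579, 0.538 and 0.645 in WT. KO and HxD lay above WT in all libraries and V overlapped WT. Of single genes 8.13% lay wholly above WT in KO and 5.26% in HxD. The share of gene pairs whose ratio separates in this way was not computed. The mean log2 ratio was 0.55 higher in KO than in WT and 0.49 higher in HxD (exact permutation test, two-sided, p = 0.1 for each, the smallest that 3 against 3 allows, and 0.3 adjusted over 6 comparisons). For V it was 0.16 higher (exact p = 0.5, adjusted p = 0.6). A p of 0.1 lies above the threshold used for the genes, so no difference in the ratio could have passed, whatever its size. The permutation test thus cannot decide whether the ratio differs between genotypes, and no conclusion is drawn from it. Ifitm1, Ifitm2 and Ifitm3 are related in sequence and all on chromosome 7, and how reads shared between them were counted is not given in the sources used here, so their counts are uncertain.

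**Figure D3:**
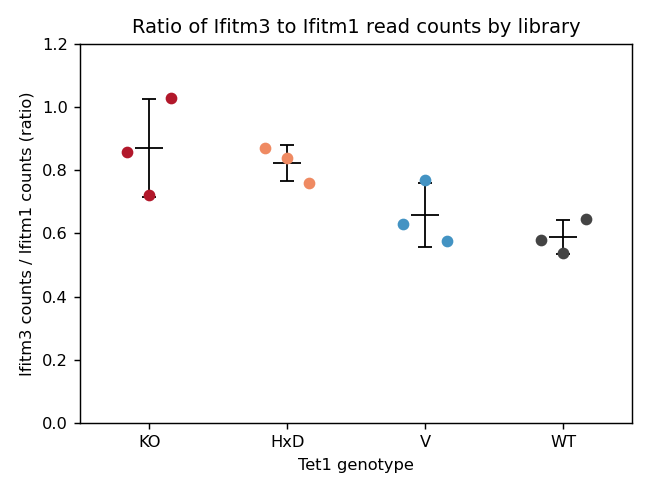
Ratio of Ifitm3 to Ifitm1 read counts in each library by Tet1 genotype, with the mean and SD of 3 libraries. KO (0.721 to 1.03) and HxD (0.759 to 0.871) lie above WT (0.538 to 0.645), and V (0.575 to 0.77) overlaps it.

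Between the mutants no member passed the test either, where edgeR called 0.0068% of genes in HxD against KO, 0.0204% in V against KO and 0% in V against HxD. Kit was the member with the largest difference. Its log2 fold change was -0.48 in V against KO (95% interval -0.92 to -0.05, edgeR adjusted p = 1) and -0.47 in V against HxD (-0.91 to -0.04, adjusted p = 0.861), and both were -0.22 without V replicate 1. At an unadjusted p under 0.05, 1 of 8 members was past the threshold in V against KO and 1 of 8 in V against HxD, Kit both times, and 0 of 8 in HxD against KO. Of all genes 4.1%, 5.07% and 4.67% were. Prdm1 in V lay below all KO and all HxD libraries (log2 fold changes -0.27 and -0.33, edgeR adjusted p = 1 and 0.861), as did 5.19% and 3.2% of genes. Lin28a in V lay below all KO libraries (log2 fold change -0.24, adjusted p = 1), and in HxD it lay below all KO libraries (-0.20, adjusted p = 1), as did 5.64% of genes in HxD against KO. In V against HxD the log2 fold changes of all 8 members were negative, as were those of 6940 of all 14702 genes. The medians were -0.12 for the members and 0.02 for all genes. The members share the same libraries, and the signs of Prdm14, Tfap2c, Lin28a and Ifitm1 turned when 1 library was left out. Tfap2c, which stood apart from WT in each mutant, differed little among the mutants, with values of 0.07 in HxD against KO, 0.04 in V against KO and -0.04 in V against HxD and 95% intervals within -0.49 to 0.52.

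**Figure D4:**
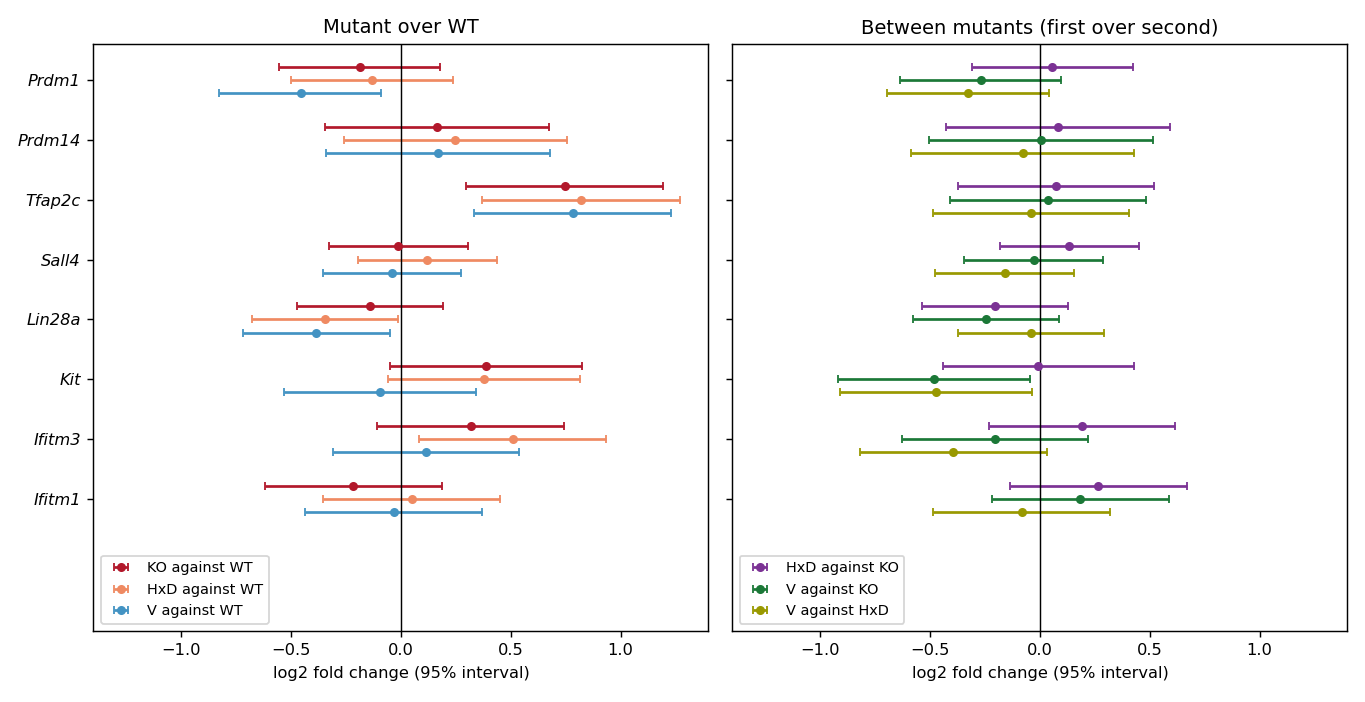
Log2 fold change of each specification factor with its 95% interval from edgeR, for each mutant over WT (left) and between mutants (right). Only the intervals of Tfap2c in the 3 mutants, Lin28a in HxD and V, Ifitm3 in HxD, Prdm1 in V, and Kit in V against KO and against HxD exclude 0, and none was called after adjustment.

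The genes that work with these factors were read from 8 lists. Over all genes edgeR called 0 members of each list in KO, HxD and V against WT, and the counts given here are at an unadjusted p under 0.05. Of all genes 3.75% were higher and 4.54% lower at that p in KO, 3.42% and 4.82% in HxD, and 2.85% and 3.2% in V. Median log2 fold changes are given in the order KO, HxD and V. Of 12 tested genes of the BMP and WNT signals that induce the fate, 1 was higher and 3 lower in KO, 1 lower in HxD and 2 lower in V, with medians of -0.26, -0.29 and -0.37. Bmpr1a, a type I BMP receptor, had 138 to 146 CPM in HxD, 116 to 155 in V and 163 to 164 in KO, each below the 195 to 246 CPM of WT (log2 fold changes -0.59, -0.60 and -0.38, edgeR adjusted p = 0.353, 0.551 and 0.576). Of all genes 7.22%, 6.06% and 8.15% lay wholly below WT in HxD, V and KO. DESeq2 called Bmpr1a in HxD and V, among 199 and 84 of all genes. Smad4, the shared effector of these receptors, had log2 fold changes of -0.45 in KO, -0.33 in HxD and -0.48 in V, and the ligand gene Bmp4 -1.32 in KO.

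Of 15 partners of the DNA-binding factors, 1 was higher in KO, 1 higher and 1 lower in HxD and 1 lower in V, with medians of -0.09, -0.005 and -0.03. The histone deacetylase gene Hdac1 had log2 fold changes of 0.54, 0.52 and 0.32 in KO, HxD and V. Rbbp7 had -0.22, -0.43 and -0.22, and the remodeller gene Chd4 -0.25, -0.205 and -0.34. Prmt5, the arginine methyltransferase that partners PRDM1, averaged 248 ± 9.19, 238 ± 40.7 and 258 ± 15.6 CPM in KO, HxD and V against 264 ± 54.9 CPM in WT (SD, n = 3 each). Of 22 early germ cell genes, 2 were higher and 1 lower in KO, 4 higher and 3 lower in HxD and 4 higher and 2 lower in V, with medians of 0.16, 0.15 and 0.04. Dppa5a, a germ and pluripotent cell gene, had log2 fold changes of 0.35, 0.52 and 0.55 in KO, HxD and V. Tdrd5, of the piRNA pathway, had -0.82, -0.77 and -0.37. Pou5f1, the Oct4 gene whose reporter was used for sorting, had 0.18, 0.55 and 0.71. DESeq2 called Dppa5a and Pou5f1 in HxD and V, among 199 and 84 of all genes. Without the low-count filter edgeR called Tdrd5 in KO, among 148 of all genes, and Pou5f1 in V, among 32. The main fit called 32, 5 and 0 of all genes in KO, HxD and V.

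For the LIN28 and let-7 pathway, 13 of 13 tested genes had a negative log2 fold change in KO, 12 of 13 in HxD and 11 of 13 in V, where 7271, 7591 and 7185 of all 14702 genes had one, with medians of -0.31, -0.26 and -0.21, and 2, 2 and 1 were lower at an unadjusted p under 0.05. Lin28b, the paralog of Lin28a, had 15.7 to 27.3 CPM in KO and 4.45 to 27.0 in HxD, below the 46.7 to 61.6 CPM of WT (log2 fold changes -1.27 and -1.45, edgeR adjusted p = 0.381 and 0.401). Of all genes 8.15% and 7.22% lay wholly below WT in KO and HxD. In V it had 23.2 to 54.7 CPM. Igf2bp2, a let-7 target, had -0.51, -0.72 and -0.12 in KO, HxD and V, and Trim71, another target, -0.33, -0.32 and -0.46.

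Of 24 genes of the KIT pathway, 1 was higher and 2 lower in KO, 0 passed in HxD and 3 were lower in V. Negative log2 fold changes were found for 18 of the 24 in KO, 12 in HxD and 16 in V. Of all 14702 genes 7271, 7591 and 7185 were negative. Kitl, which encodes the KIT ligand and is made by somatic cells, was at 0 to 32.2 CPM across the libraries. Sos1, an exchange factor for RAS, had log2 fold changes of -0.42, -0.39 and -0.50 in KO, HxD and V. The phosphatase gene Ptpn11 had -0.01, -0.35 and -0.45, and the adaptor gene Gab2 1.01, 0.72 and 0.11. Of 15 tested genes related to the members by family, 1 was higher in each mutant, and it was Ifitm2. It had 124 to 173 CPM in KO, 116 to 257 in HxD and 127 to 195 in V, against 99.3 to 120 CPM in WT (log2 fold changes 0.47, 0.80 and 0.50, edgeR adjusted p = 0.592, 0.317 and 0.81). Without the low-count filter or without HxD replicate 1, edgeR called Ifitm2 in HxD, among 67 and 47 of all genes. Prdm10 had log2 fold changes of 0.17, 0.61 and 0.69, and Prdm8 was at 1.07 CPM or less in all KO, HxD, V and WT libraries.

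Of 20 interferon-response genes 10 were tested, and 0 were past an unadjusted p of 0.05 in KO, 1 higher in HxD and 2 higher in V. No median is given for this list, since Ifit2 and Oasl2 had 0 counts in all libraries of a genotype. Most of the list lay below WT. Negative log2 fold changes were found for 7 of the 10 in KO, 6 in HxD and 6 in V. Of all 14702 genes 7271, 7591 and 7185 were negative. Bst2, an antiviral membrane protein gene, had log2 fold changes of 0.43, 0.69 and 0.81 in KO, HxD and V, and Irf9, part of the interferon transcription complex, 0.09, 1.42 and 1.51. Oasl2 was at 3.86 CPM or less in all libraries. Of 12 somatic genes that PRDM1 represses in germ cells, 6 were tested, of which 1 was higher in KO, 1 in HxD and 0 in V. Cdx2, a trophectoderm and posterior patterning gene, had 1.37 to 7.56 CPM in KO, 2.26 to 7.88 in HxD and 0 to 1.65 in V, against 0 to 0.0909 CPM in WT. DESeq2 called it in KO and HxD, among 239 and 199 of all genes. Cdx2 had 0 counts in 2 WT libraries and passed the low-count filter through mutant libraries alone. Its p and these calls thus rest on values near 0, and no conclusion is drawn from them. Snai1 was at 1.45 CPM or less throughout, and Lef1 had log2 fold changes of 0.37, 0.65 and 0.20.

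Members were also compared over the 12 libraries by the root mean square difference in log2 CPM. Each gene was centred on its own mean, and 9002 other named genes averaging at least 8 CPM were used. Profiles were not scaled, so genes that vary little can come out close without a shared pattern. Among pairs of members, Prdm1 and Sall4 (0.228) and Prdm1 and Lin28a (0.232) differed least, and Tfap2c and Lin28a most (0.607). Sall4, Lin28a and Prdm1 also had the smallest SDs of log2 CPM among the members (0.142, 0.21 and 0.224), and Tfap2c the largest (0.461). The order of these pairs may thus follow spread. Ifitm3 and Ifitm1 differed by 0.275. The best rank that a member reached in another's order was 164, for Ifitm3 from Tfap2c (0.338), so that many other genes were nearer. These are descriptions over libraries that share depth and genotype. The nearest genes were Tcea1 and Rnf10 for Prdm1 (0.11 and 0.13), Dhx8 and Sox13 for Prdm14 (0.13 and 0.17), Plekha7 and Socs2 for Tfap2c (0.15 and 0.18), and Ints10 and Glyr1 for Sall4 (0.09 for both). For Lin28a they were Nat10 and Ski (0.10 and 0.12), for Kit Trim33 and Sept11 (0.12 and 0.14), for Ifitm3 Mrps17 and Rfc2 (0.15 and 0.16), and for Ifitm1 Pcbp1 and Lyar (0.15 for both). No member was among the 2 nearest genes of another.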

How the data were processed

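Per the labels' protocols, RNA from sorted cells was captured on oligo-dT beads before library preparation. The values deposited are raw counts, as whole numbers for each symbol. The submitters' processing notes name Trim Galore 0.6.7, FastQC, featureCounts 2.0.3, STAR 2.7.10b and SAMtools 1.9, and builds GRCm39 and mm10 with no role. Annotation and strand setting: not given in the sources used here. One further column (1 in all) names no sample and was not used, and 1 wild-type sample of the labels was not analysed here.

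Counts were filtered with edgeR 4.0.16 (filterByExpr), scaled by TMM and fitted by quasi-likelihood to 12 libraries with genotype as the only term, in R 4.3.3. Tests were two-sided, with Benjamini-Hochberg adjustment over 14702 genes and a threshold of 0.05. The common biological coefficient of variation was 0.932. The SE is the log2 fold change divided by the square root of F. The labels do not tell whether replicates are separate animals, so the p-values cover the spread among these libraries alone, which could be technical. Libraries of 1 genotype correlated at 0.884 to 0.917 (Spearman, counts), those of different genotypes at 0.878 to 0.918. The fit was tested on simulated data. A gene that was not called can still differ between genotypes.

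Members and lists were chosen with earlier results of these data known. The text names all members and, from each list, called genes and the 3 further genes with the smallest p against WT, plus the 2 nearest profiles per member. Emcn, Tie1, Pecam1, Cpa3, Cma1, Mcpt4, Ddx4, Dnd1, Dazl, Dppa3, Sycp3, Nanos2, Prmt5, Kitl and Ifit2 fall outside that rule and were chosen after their values were seen. Alternatives were RLE scaling, DESeq2 1.42.0, other filters, 2 genotypes alone, a replicate block and leaving out libraries.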

Additional observations from a re-analysis of the deposited data

How the results depend on the processing

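The count of members called by edgeR stayed at 0 in all 6 comparisons under 17 of 19 alternatives, and was 1 (Tfap2c in HxD against WT) with DESeq2 and without the expression filter. That includes each left-out library and WT replicate 3 and V replicate 3 left out together. Deviations of same-numbered libraries correlated weakly (-0.145 to 0.121, 2 of 18 over 0.1), and the main fit did not take the numbers as pairs. Whether the numbers mark pairs is not settled by this, since a replicate block raised the calls over all genes. With a replicate block 0 members were called, while over all genes the calls were 104 in KO, 45 in HxD and 8 in V against WT, beside 32, 5 and 0 without it, and Tfap2c had adjusted p = 0.0576 in KO, 0.0576 in HxD and 0.153 in V. Of 912 alternative values of a member's log2 fold change, 46 changed sign, in 19 of 48 results, none of them called in any setting. Leaving out 1 library gave ranges across 0 for Prdm14 (-0.034 to 0.335) and Sall4 (-0.105 to 0.067) in KO against WT, and for Ifitm1 (-0.177 to 0.197) in HxD against WT. In V against WT, with WT replicate 3 and V replicate 3 together among those left out, it did so for Prdm14 (-0.052 to 0.354), Sall4 (-0.13 to 0.076), Kit (-0.288 to 0.174), Ifitm3 (-0.02 to 0.508) and Ifitm1 (-0.206 to 0.203). In HxD against KO the ranges were -0.088 to 0.142 for Prdm1, -0.089 to 0.28 for Prdm14, -0.033 to 0.183 for Tfap2c, -0.185 to 0.204 for Kit and -0.195 to 0.061 for the log2 ratio of Ifitm3 to Ifitm1, whose leave-one-out was chosen after seeing the data. In V against KO they were -0.167 to 0.202 for Prdm14, -0.065 to 0.13 for Tfap2c and -0.116 to 0.064 for Sall4. In V against HxD they were -0.216 to 0.09 for Prdm14, -0.146 to 0.074 for Tfap2c, -0.116 to 0.007 for Lin28a and -0.269 to 0.155 for Ifitm1. Kit in HxD against KO (-0.007) was 0.008 with RLE scaling, 0.006 with the stricter filter, 0.001 with 2 genotypes alone and 0.008 with DESeq2. Without WT replicate 3 and V replicate 3, Sall4 was 0.066 in KO against WT, 0.076 in V against WT and 0.01 in V against KO. Prdm14 was then -0.052 in V against WT and -0.073 in V against KO, Ifitm1 was 0.203 in V against WT and 0.012 in V against HxD, and Tfap2c was 0.055 in V against HxD. The causes were not tested. For the lists, 446 of 456 alternative counts stayed at 0. DESeq2 called 239, 199 and 84 of all genes in KO, HxD and V against WT, and edgeR without the expression filter 148, 67 and 32.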
